A study of Mus musculus with 30 samples.

Results

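The genes of the LIF receptor, STAT3 and its described targets were followed in mouse embryonic stem (ES) cells and in the serum-free aggregates made from them. The 10 genes were the receptor chains Lifr and Il6st, the transcription factor Stat3, and the targets Socs2, Socs3, Cish, Pim1, Pim3, Bcl3 and Sbno2, of 15964 genes with a probe set of their own on the arrays. They were taken by name, with earlier results of these data known. Every probe set that named 1 of them alone was used, which gave 26 probe sets. Of these, 22 passed a filter on low signal and were tested. The other 4 were 2 for Lifr (104659_g_at and 97006_s_at) and 1 each for Sbno2 (167029_at) and Stat3 (140432_r_at).

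All samples came from a Sox1-GFP ES line of 129 origin, in which green fluorescence reports Sox1, a transcription factor of early neuroectoderm. The ES group held 3 samples of undifferentiated cells sorted as E-cadherin-positive. The other 7 samples were cells of floating aggregates in medium with a serum replacement (the SFEB culture): day 1 with no sort label, day 2 E-cadherin-negative, day 2 E-cadherin-positive, day 3 Sox1-negative, and Sox1-positive cells of day 3, day 4 and day 5, with 1 sample each. The labels do not name LIF in either culture, so its presence or absence is not stated here. A single line was used, and nothing says whether the 3 ES samples were separate cultures, so the spread among them may be technical. The aggregate samples differ in day and sort, and where they are pooled their spread holds those differences too. The p-values therefore measure only the spread between these samples, and a missing call does not show that a gene was unchanged. Each sample was run on the A, B and C chips of the Affymetrix U74 version 2 design, which made 30 arrays, and the value of a probe set was its deposited linear intensity. The number of arrays limits the precision.

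LIF, a cytokine of the interleukin-6 family, binds the receptor chain encoded by Lifr together with the shared chain gp130, encoded by Il6st. Bound kinases of the JAK family then phosphorylate STAT3, which enters the nucleus and raises its target genes. Among these are Socs proteins that dampen the same signal, and in mouse ES cells the pathway is known for helping to sustain self-renewal.

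The largest change of a single probe set of the 10 genes was that of 102239_at for Bcl3, a nuclear IκB-family cofactor of NF-κB. It had intensities of 1054, 1105 and 1088 in the 3 ES samples. In the aggregates it read 89.4 on day 1, 46.0 and 88.4 in the E-cadherin-negative and E-cadherin-positive cells of day 2, 77.7 in Sox1-negative cells of day 3, and 47.4, 33.9 and 41.3 in Sox1-positive cells of days 3, 4 and 5. Every aggregate sample was thus far below every ES sample, including the earliest one, and the ES mean was 12.1 times the day 1 value. The aggregate mean of 60.6 was under the filter on low signal of its chip (78.6), which the probe set passed through its ES values. The other Bcl3 probe set, 105489_at, had a lower ES mean (531 against 1083) but the higher mean log2 value over the 10 samples. It differed by only -0.87 over the aggregates (SE 0.186, limma adjusted p = 0.113). That was less than the probe sets with the highest mean log2 value of Socs3 (-1.52), Lifr (-1.12), Pim3 (-1.12) and Pim1 (-0.92), which were not called either. Most of the other genes were lower by amounts smaller than that of Bcl3 102239_at, Cish showed no difference beyond its spread, and Socs2 was low mainly in E-cadherin-negative and Sox1-positive cells.

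**Figure D1:**
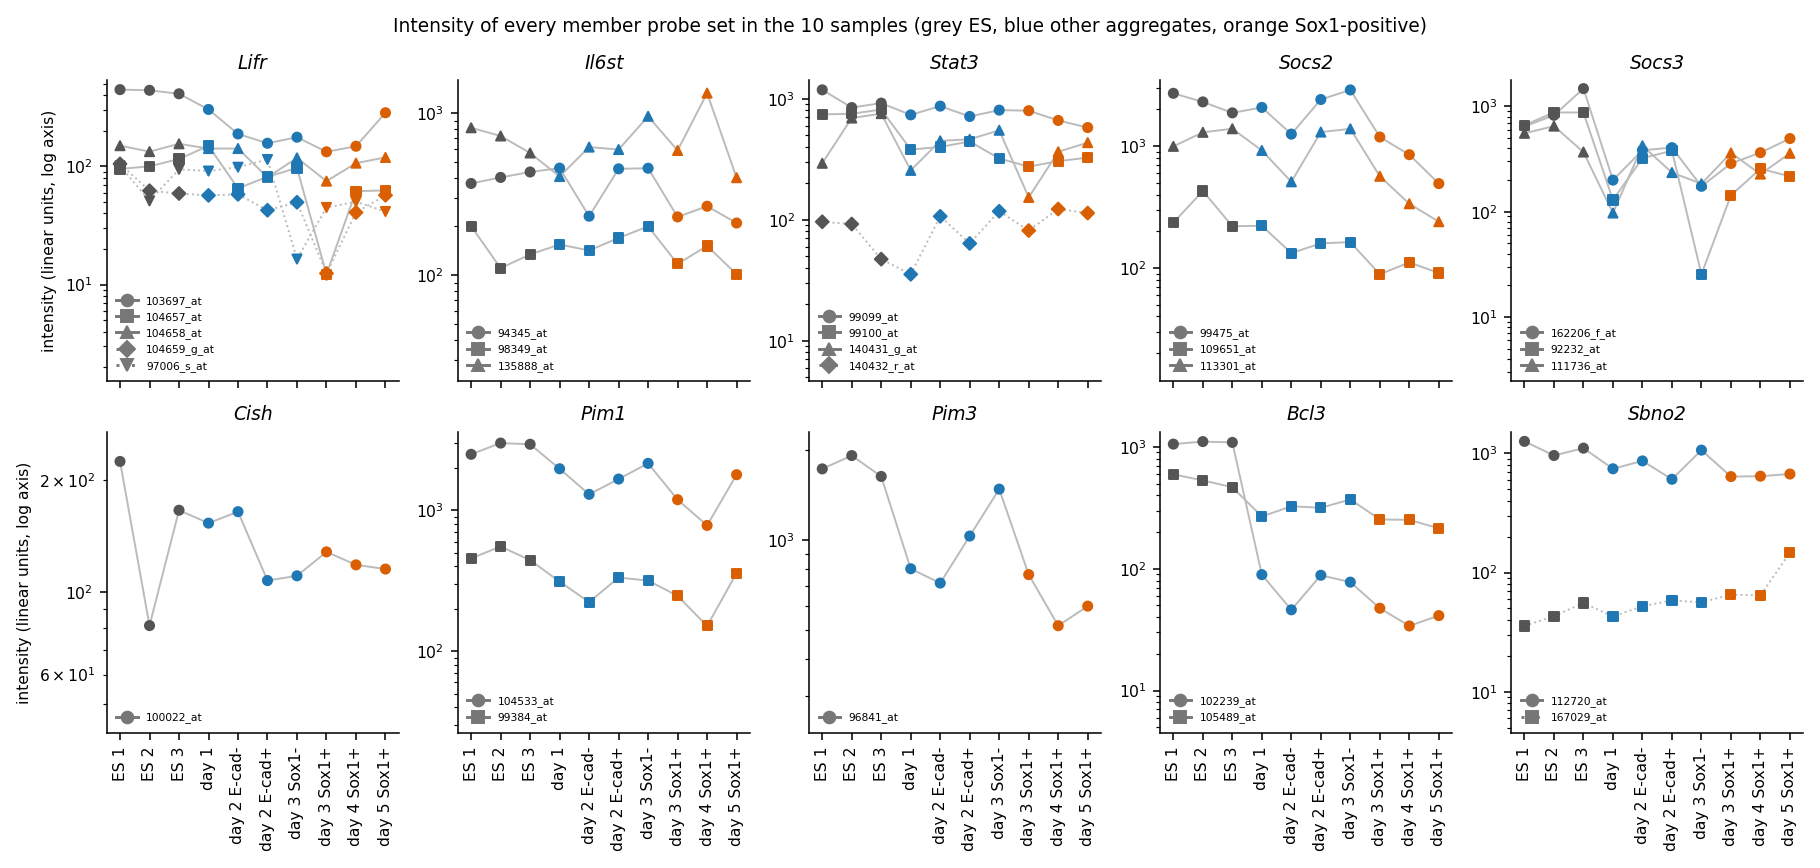
Linear intensity (log axis) of each of the 26 probe sets of the 10 genes in the 10 samples; each marker shape is 1 probe set, grey marks ES samples, blue the 4 other aggregate samples and orange the 3 Sox1-positive samples, and lines only join the points of a probe set (dotted where it did not pass the filter). The Bcl3 probe set 102239_at drops from 1054 or more in ES cells to 89.4 or less in every aggregate sample, whereas Socs2 99475_at stays at 2073 or more on day 1, in day 2 E-cadherin-positive cells and in day 3 Sox1-negative cells.

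The first comparison asked which of the genes differed between all 7 aggregate samples and the 3 ES samples. limma (differences of log2 intensity plus 16, a scale that understates changes of weak signals; Benjamini-Hochberg adjustment over all probe sets) called 2 of the 22 probe sets, both lower in aggregates, where 0.125% of all 25690 probe sets were called and 0.105% were called lower. These were Bcl3 102239_at, which fell by 3.90 (SE 0.251, limma adjusted p = 3.51e-05), and Stat3 99100_at, which fell by 1.12 (SE 0.165, limma adjusted p = 0.0356). At an unadjusted p under 0.05, 13 of the 22 were lower and 0 higher, beside 6.57% lower among all probe sets. The median difference was -0.84 over the 22 probe sets and 0.016 over all. In 9 of the 22, or 40.9%, every aggregate sample lay below every ES sample, which held for 3.29% of all probe sets. Since the genes were chosen with earlier results of these data known, these shares only describe them. Of the 10 genes, each by the probe set with the highest mean log2 value, limma called 0 in this comparison (0.0773% of 12941 genes were called lower). At an unadjusted p under 0.05, 7 of them were lower, beside 6.57% of all probe sets. The share over all genes by 1 probe set each is not given here for that threshold. The Bcl3 call was kept in all 20 alternative settings, with limma adjusted p between 1.84e-06 and 0.00223. That probe set passed the filter on low signal through its ES values, which holds for its calls in the comparisons below too. The Stat3 call was lost with no filter and without any 1 of ES 1, ES 2, ES 3, day 2 E-cadherin-negative, day 3 Sox1-negative, day 3 Sox1-positive or day 4 Sox1-positive cells, with limma adjusted p from 0.00399 to 0.212 over the alternatives.

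Within the aggregates, Sox1-positive cells were further compared with ES cells, 3 samples against 3. Here limma called 13 of the 22 probe sets, all lower, beside 4.84% called lower (10.5% called either way) among all probe sets. By 1 probe set per gene, 7 of the 10 genes fell: Lifr, Socs2, Socs3, Pim1, Pim3, Bcl3 and Sbno2, where 6.17% of all genes were called lower. In 18 of the 22, or 81.8%, every Sox1-positive sample was below every ES sample, against 15.1% of all probe sets. The median difference was -1.10 beside -0.003. The choice of the genes limits these shares in the same way. The count of 13 called depended on single samples: it was 5 without ES 2 or without day 4, 7 without day 3 and 8 without ES 3. By 1 probe set per gene it was 1 without ES 2, 2 without day 4 and 3 without ES 1, ES 3 or day 3. The probe sets of Bcl3 (102239_at), Pim3 (96841_at) and Stat3 (99100_at) were called in every one of their alternatives. All these samples are bulk RNA, in which fewer cells of a type and less RNA per cell cannot be told apart.

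**Figure D2:**
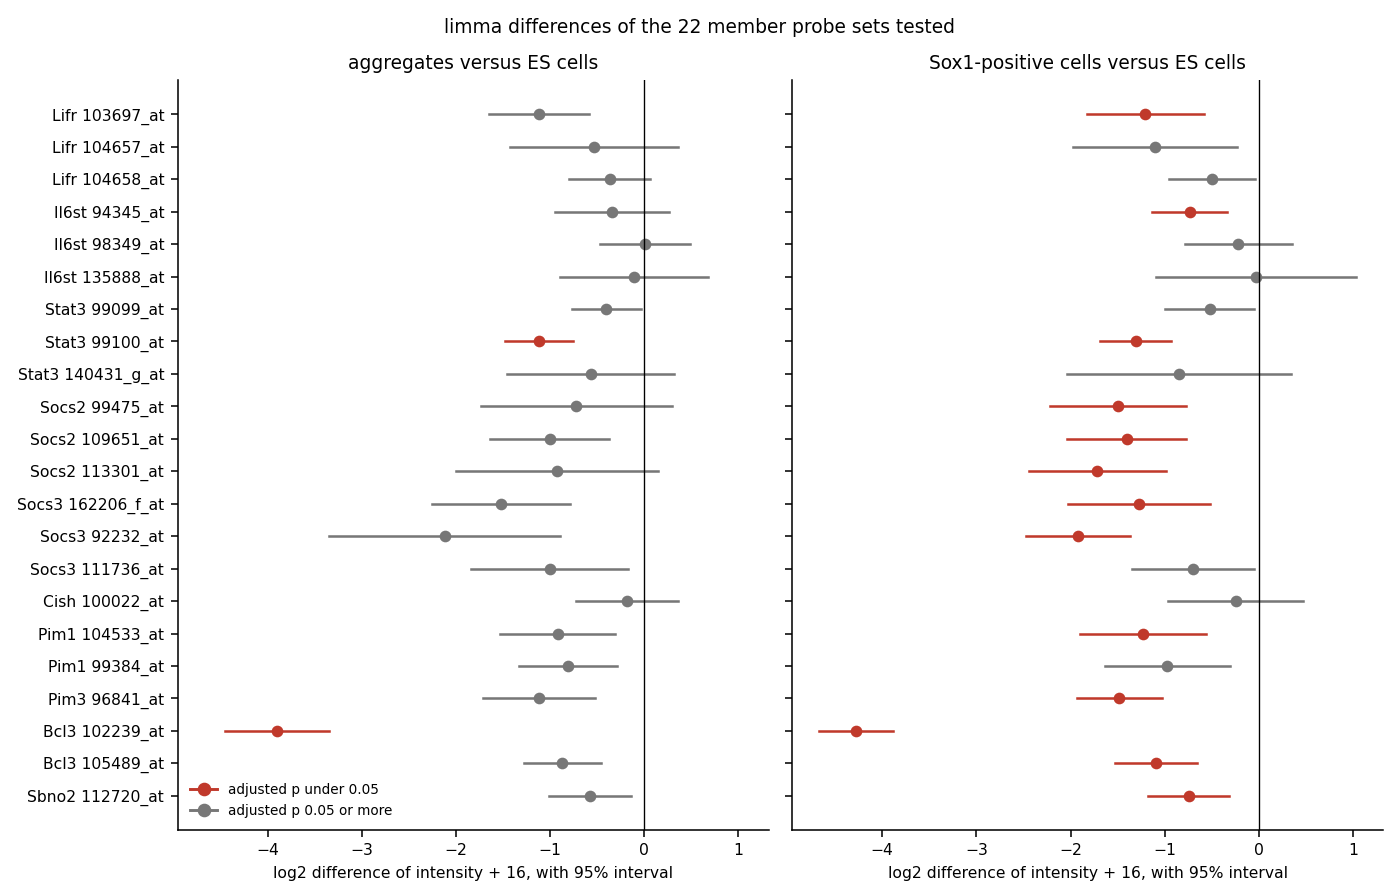
Log2 difference (points) with its 95% interval (bars) of the 22 tested probe sets in limma, for all 7 aggregate samples against 3 ES samples (left) and the 3 Sox1-positive samples against 3 ES samples (right); red marks an adjusted p under 0.05. On the left 2 probe sets are red and on the right 13, and Bcl3 102239_at lies farthest from 0 in both panels.

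The 4 other aggregate samples (day 1, both sorts of day 2 and day 3 Sox1-negative) had 1 of 22 probe sets called against ES cells, Bcl3 102239_at, which fell by 3.62 (SE 0.216, limma adjusted p = 0.000251), beside 0.0662% of all probe sets. At an unadjusted p under 0.05, 11 were lower and 0 higher, where 4.5% of all probe sets were lower, and the median difference was -0.57. In 9 of the 22 all 4 samples lay below all ES samples, beside 5.05% of all probe sets. Taken one at a time against the ES samples, with a lone sample assumed to vary like the ES samples, day 1 had 0 of 22 called in limma, as had all 25690 probe sets (0%), although 7 of the 22 were lower at an unadjusted p under 0.05 (3.71% of all). Day 2 E-cadherin-negative cells had 1 called (Bcl3 102239_at, 0.0272% of all), and day 2 E-cadherin-positive and day 3 Sox1-negative cells had 0 (0% of all), with 10 and 6 lower at an unadjusted p under 0.05 (4.48% and 3.6% of all). The Sox1-positive samples had 4 called on day 3, 3 on day 4 and 5 on day 5, beside 1.47%, 1.87% and 4.22% of all probe sets. Of these 8 distinct probe sets, 1 was still called in any sample without ES 2 and 3 without ES 3.

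**Figure D3:**
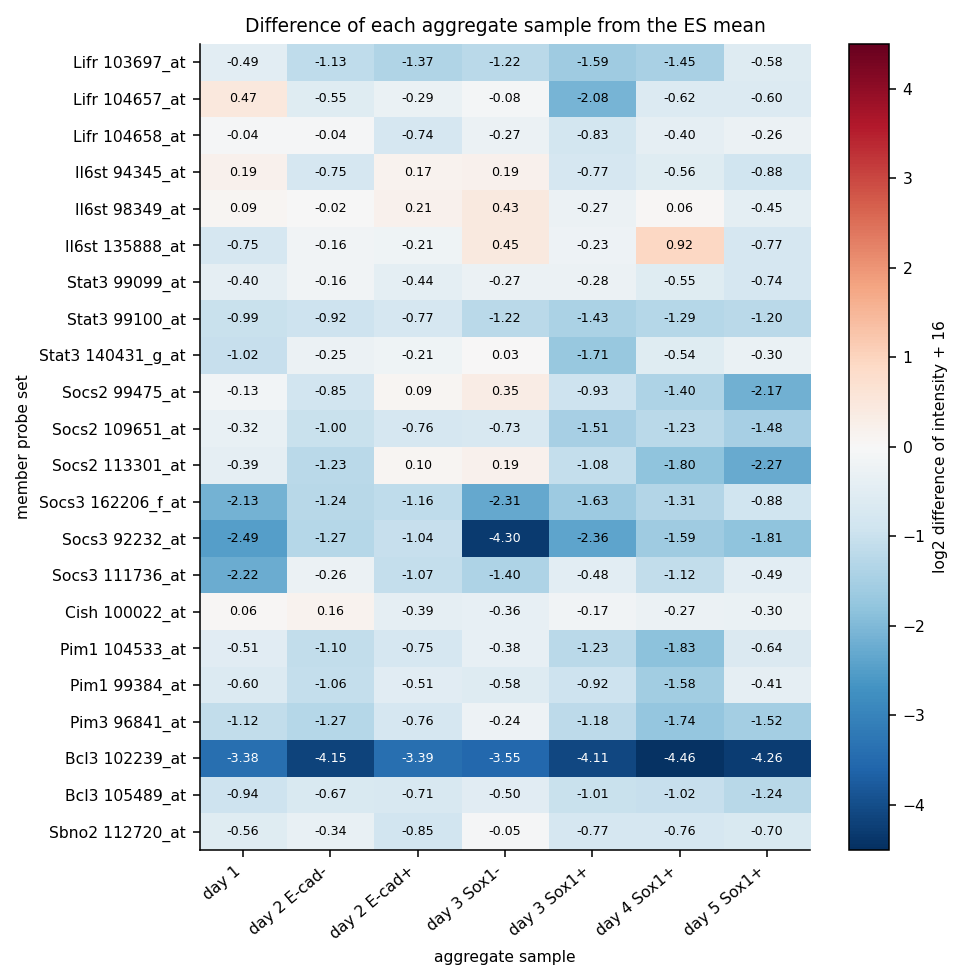
Difference of log2 intensity plus 16 between each aggregate sample (columns) and the mean of the 3 ES samples, for the 22 tested probe sets (rows), with the value in each cell and blue for lower. Bcl3 102239_at is at -3.38 to -4.46 in all 7 samples, the 3 Socs3 probe sets are at -2.13 to -2.49 on day 1, and Socs2 99475_at and 113301_at lie between -0.39 and 0.35 on day 1, in day 2 E-cadherin-positive and in day 3 Sox1-negative cells.

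Of the receptor chains, Lifr encodes the one that binds LIF. Its probe set 103697_at read 446, 440.1 and 411 in ES cells. It was 303 on day 1, 188 and 157 in day 2 E-cadherin-negative and E-cadherin-positive cells, 176 in day 3 Sox1-negative cells, and 133, 148 and 284 in Sox1-positive cells of days 3, 4 and 5. All 7 aggregate samples were below all ES samples, with day 1 and day 5 the nearest to them. In order of level the samples ran from ES cells through day 1 and day 5 to the other 5, which lay between 133 and 188. The ES SD was 18.6, and the aggregate samples have no replicates to settle their order. The difference was -1.12 over all aggregates (SE 0.242, limma adjusted p = 0.113) and -1.21 in Sox1-positive cells (SE 0.271, limma adjusted p = 0.0281). The call in Sox1-positive cells was lost without any 1 of ES 1, ES 2, ES 3, day 3 or day 4, and with the mean over all probe sets of the gene. The other tested probe sets of Lifr, 104657_at and 104658_at, read 95.1 to 115 and 133 to 155 in ES cells and differed by -1.10 and -0.50 in Sox1-positive cells, which limma did not call (adjusted p = 0.114 and 0.169). On day 1 the former was at 149, above its ES range, and the latter at 142, within it. In Sox1-positive cells of days 3, 4 and 5 the former read 12.2, 61.6 and 62.7, all under the filter of its chip (78.6).

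Il6st encodes gp130, the chain shared by the whole cytokine family. Its 3 probe sets did not move alike. The one kept to represent the gene, 135888_at, read 814, 724 and 569 in ES cells and from 400.2 on day 5 to 1333 on day 4 in aggregates, a wide spread around the ES values, and its differences of -0.11 over all aggregates and -0.03 in Sox1-positive cells were not called by limma (adjusted p = 0.931 and 0.981). Another, 94345_at, read 369, 402 and 434 in ES cells. It read 459 on day 1, 454 in day 2 E-cadherin-positive and 458 in day 3 Sox1-negative cells, but 231 in day 2 E-cadherin-negative cells and 229, 267 and 210.1 in Sox1-positive cells of days 3, 4 and 5. The 7 aggregate samples so fell into 3 just above the ES range and 4 below it. In Sox1-positive cells it fell by 0.74 (SE 0.174, limma adjusted p = 0.0337). That call was lost without any 1 of ES 2, ES 3, day 3, day 4 or day 5. It was also lost with no filter, without ES 3 and day 5 together, and where the ES, other aggregate and Sox1-positive samples were fitted together. The third, 98349_at, lay inside the ES range of 111 to 201 in 6 of the 7 aggregate samples.

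STAT3 is the transcription factor of the pathway and can raise its own gene. Probe set 99100_at read 741, 750.1 and 813 in ES cells. It read 380 on day 1, 399 and 443 in the E-cadherin-negative and E-cadherin-positive cells of day 2, 320.3 in day 3 Sox1-negative cells and 274, 305 and 326 in Sox1-positive cells. No aggregate sample came near the ES range, and the ES mean of 768 ± 39.3 (SD, n = 3) was 2.20 times the aggregate mean of 349 ± 59.4 (SD, n = 7). The fall was 1.31 in Sox1-positive cells (SE 0.165, limma adjusted p = 0.00306). Probe set 99099_at showed less: it read 1183, 844 and 919 in ES cells and from 577 to 868 in aggregates, with the E-cadherin-negative sample of day 2 inside the ES range. Its differences of -0.40 over all aggregates (SE 0.167) and -0.52 in Sox1-positive cells (SE 0.206) were not called by limma (adjusted p = 0.31 and 0.161). Another, 140431_g_at, varied from 292 to 753 among the ES samples themselves and overlapped with the aggregates. The 3 tested probe sets thus gave 1 called fall and differences of the same sign without a call for the other two.

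Socs3 encodes a protein that binds gp130 and JAK and blocks their signal. The window around its start in RefSeq (GRCm38.p6) is shown because it holds a match to TTCNNNGAA, the letters that STAT proteins bind. The motif reads the same on both strands, and it was the only motif searched. Of 13 windows of 300 bases for 9 of the 10 genes, 4 windows of 3 genes held it (Socs3, Cish and Sbno2), beside 8.3% of 32851 windows of all genes. The deposited files carry no genome build, and a match is a description of the letters alone. The 250 bases before the start, at chr11:117969367-117969616 on the minus strand, follow with the match in capitals; its first base lies 154 bases before the start.
Socs3: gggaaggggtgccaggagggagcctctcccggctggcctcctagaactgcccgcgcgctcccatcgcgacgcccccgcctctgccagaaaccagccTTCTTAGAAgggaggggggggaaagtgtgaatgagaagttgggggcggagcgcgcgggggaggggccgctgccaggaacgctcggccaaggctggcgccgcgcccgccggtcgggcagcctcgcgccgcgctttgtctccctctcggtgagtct

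In the single day 1 sample, each tested Socs3 probe set read below all its ES samples. In later samples 92232_at and 162206_f_at stayed below them, and 111736_at did so in all but one. Probe set 92232_at read 663, 878 and 877 in ES cells, 129 on day 1, 323 and 380 in E-cadherin-negative and E-cadherin-positive cells of day 2, 25.4 in day 3 Sox1-negative cells and 143, 256 and 217 in Sox1-positive cells of days 3, 4 and 5. All aggregate samples lay below all ES samples, the lowest being day 3 Sox1-negative and the next day 1. Probe set 162206_f_at, whose suffix marks probes shared with related sequences, read 646, 825 and 1480 in ES cells and, in the same order of aggregates, 199.7, 384, 406, 174, 287, 364 and 496. It too was lowest in day 3 Sox1-negative and day 1 cells. Probe set 111736_at read 556, 651 and 369 in ES cells and 97.1 on day 1, its lowest value. Its other aggregate values ran from 184 to 423, and that of 423, in day 2 E-cadherin-negative cells, lay inside the ES range. In Sox1-positive cells 92232_at fell by 1.92 (SE 0.241, limma adjusted p = 0.00305), a call kept without any single sample and lost only where the 3 classes were fitted together. There 162206_f_at fell by 1.27 (SE 0.327, limma adjusted p = 0.0444), a call lost without any 1 of ES 2, ES 3, day 3 or day 4. That call was also lost with a pseudocount of 1, with no filter, without ES 3 and day 5 together, and where the 3 classes were fitted together. Over all 7 aggregates the differences were -2.12, -1.52 and -1.01 for 92232_at, 162206_f_at and 111736_at, not called by limma (adjusted p = 0.173, 0.116 and 0.276).

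Socs2 encodes an inhibitor best known for restraining growth hormone signals. Its probe set 99475_at read 2707, 2301 and 1871 in ES cells. It read 2073 on day 1, 1253 and 2408 in day 2 E-cadherin-negative and E-cadherin-positive cells, 2886 in day 3 Sox1-negative cells, and 1185, 849 and 492 in Sox1-positive cells of days 3, 4 and 5. Day 1, E-cadherin-positive and Sox1-negative cells were within or above the ES range, and the other 4 samples were below it. Probe set 113301_at had nearly the same split, day 1 lying just below its ES range, with 994, 1296 and 1386 in ES cells, 920 on day 1, 1302 in E-cadherin-positive and 1384 in Sox1-negative cells, against 509 in E-cadherin-negative and 565, 336 and 239.5 in Sox1-positive cells. The third, 109651_at, read 235, 428 and 220.0 in ES cells and 222 on day 1, and the other 6 aggregate samples lay between 88.8 and 163, below all ES samples. In Sox1-positive cells all 3 fell against ES cells, with differences of -1.498, -1.717 and -1.403 for 99475_at, 113301_at and 109651_at (limma adjusted p = 0.022, 0.0138 and 0.0177). Each of these calls was lost without day 4; that of 99475_at was also lost without ES 1 or ES 2, that of 113301_at without ES 2, and that of 109651_at without day 3 or day 5. The summed intensity of 10 ES cell marker genes, none at 0, ran with the same split: 36877 to 47436 in ES cells, 27505 on day 1, 30067 and 26208 in E-cadherin-positive and Sox1-negative cells, 9529 in E-cadherin-negative cells and 1765 to 6982 in Sox1-positive cells. Its part in the Socs2 values was not tested. Among the aggregates, Bcl3 102239_at ran with the same split at a low level, at 77.7 to 89.4 in the 3 samples with the highest marker sums and 33.9 to 47.4 in the other 4, but all 7 were far below its ES range.

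Cish, a close relative of Socs2 and a known target of STAT5, had 1 probe set, 100022_at. It read 224, 81.3 and 166 in ES cells and from 107 to 164 in aggregates, all inside the ES range. The difference in Sox1-positive cells was -0.25 with a 95% interval from -0.97 to 0.47 (limma adjusted p = 0.697), so a fall of the size seen for Bcl3 102239_at lay outside the interval whereas a smaller change of either sign did not. Its window is shown because it was the only 1 of the 13 with a pair of matches to the motif, where 0.457% of all windows had 2 or more; the first begins at the start base and the second 11 bases after it. These are the 30 bases at chr9:107296654-107296683 on the plus strand, with the matches in capitals.
Cish: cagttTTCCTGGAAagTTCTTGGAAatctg

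Pim1 and Pim3 encode serine/threonine kinases that promote survival and growth. Pim1 104533_at read 2508, 3015 and 2957 in ES cells, 1980 on day 1, 1303 and 1673 in E-cadherin-negative and E-cadherin-positive cells of day 2, 2162 in day 3 Sox1-negative cells and 1194, 783 and 1797 in Sox1-positive cells of days 3, 4 and 5. Every aggregate sample was below every ES sample, day 4 the lowest and day 3 Sox1-negative the highest of them. Pim1 99384_at was likewise lower in all 7, at 151 on day 4 to 359 on day 5 against 444 to 555 in ES cells. In Sox1-positive cells 104533_at fell by 1.23 (SE 0.291, limma adjusted p = 0.0332), and 99384_at differed by -0.97 without a call (adjusted p = 0.0751). The call of 104533_at was lost without any 1 of ES 1, ES 2, ES 3, day 3 or day 4, and with no filter. A call of 99384_at was gained without day 5, with the filter at the 60th percentile and where the 3 classes were fitted together.

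Pim3 96841_at read 1733, 1920 and 1635 in ES cells. It read 802 on day 1, 718 and 1032 in E-cadherin-negative and E-cadherin-positive cells of day 2, 1482 in Sox1-negative cells and 767, 517 and 601 in Sox1-positive cells of days 3, 4 and 5. All 7 were below the ES range, and the Sox1-negative sample of day 3 was the only one near it. The fall in Sox1-positive cells was 1.48 (SE 0.197, limma adjusted p = 0.00374), from an ES mean of 1763 ± 145 (SD, n = 3) to 628 ± 127 (SD, n = 3), and it was called in all 17 alternatives with adjusted p up to 0.0343.

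The 2 probe sets of Bcl3 fell by unequal amounts. For 102239_at the ES mean was 1083 ± 26.3 (SD, n = 3) and the Sox1-positive mean 40.9 ± 6.76 (SD, n = 3), a fitted difference of -4.28 (SE 0.17, limma adjusted p = 6.3e-05). No fold is given, since all 3 Sox1-positive values lay under the filter on low signal of the chip. For 105489_at, which has the higher mean log2 value over the 10 samples, the intensities were 595, 531 and 467 in ES cells, 269 on day 1, 325 and 317 in E-cadherin-negative and E-cadherin-positive cells of day 2, 370.0 in Sox1-negative cells, and 254, 252 and 215 in Sox1-positive cells. Again no aggregate sample reached the ES range, but the ES mean was 2.21 times the Sox1-positive mean, a fall of 1.09 (SE 0.189, limma adjusted p = 0.0113) that lost its call without ES 2. The difference of 102239_at over all aggregates ran from -4.23 to -3.22 over the alternatives. In the mean over both probe sets, Bcl3 was called over all aggregates (limma adjusted p = 0.000436). The 250 bases before its start in RefSeq (GRCm38.p6), at chr7:19822756-19823005 on the minus strand, are shown for the gene whose probe set fell most; they hold no match to TTCNNNGAA, which says only that these letters are not in this window.
Bcl3: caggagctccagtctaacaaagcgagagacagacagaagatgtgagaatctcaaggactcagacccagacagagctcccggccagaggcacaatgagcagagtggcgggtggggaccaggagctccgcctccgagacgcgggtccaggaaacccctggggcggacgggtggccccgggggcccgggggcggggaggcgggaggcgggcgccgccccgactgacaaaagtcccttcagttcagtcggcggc

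Sbno2 encodes a helicase-like co-regulator described downstream of interleukin-10 and STAT3. Its tested probe set 112720_at read 1262, 961 and 1107 in ES cells, 743 on day 1, 865 and 607 in E-cadherin-negative and E-cadherin-positive cells of day 2, 1066 in Sox1-negative cells and 639, 644 and 672 in Sox1-positive cells of days 3, 4 and 5. The Sox1-negative sample lay inside the ES range and the other 6 below it, with the Sox1-positive samples close together at 652 ± 17.6 (SD, n = 3). The fall in Sox1-positive cells was 0.75 (SE 0.186, limma adjusted p = 0.0419). That call was lost without any single one of the 6 samples compared. It was also lost with no filter, without ES 3 and day 5 together, and where the 3 classes were fitted together. The mean with the weak probe set 167029_at, which read 35.7 to 147 and was highest on day 5, gave a difference of 0.008. Sbno2 has 3 starts in the table, and 2 of them hold a match within 30 bases upstream, at 24 and 26 bases before the start. They are shown as 30 bases each with the match in capitals, at chr10:80101193-80101222 and chr10:80102710-80102739, both on the minus strand.
Sbno2, first: cccggctctgcTTCCCGGAAtgcctgtgag
Sbno2, second: ggccgcgccccTTCGCAGAAgcggaagtgc

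A further comparison set the 3 Sox1-positive samples against the 4 other aggregate samples, to ask what differed with the sort and day within the aggregates. limma called 0 of the 22 probe sets (1.44% of all), and 7 were lower at an unadjusted p under 0.05 where 10% of all probe sets were. The largest differences were those of Socs2 113301_at and 99475_at, -1.38 (SE 0.394, limma adjusted p = 0.104) and -1.36 (SE 0.348, limma adjusted p = 0.0803). Without the day 2 E-cadherin-negative sample 4 probe sets were called: both of these, Il6st 94345_at and Bcl3 102239_at. The share of all probe sets called in that fit is not given here, so the count is no result about the genes. Socs3 pointed the other way, at 0.36 to 0.54 higher in Sox1-positive cells by its 3 probe sets, none of them called (limma adjusted p = 0.516 to 0.823). A slope on day over the 7 aggregates called 0 of 22 (0.00779% of all), with 4 lower at an unadjusted p under 0.05 (8.41% of all). Its value for Socs2 99475_at was -0.50 per day (SE 0.156, limma adjusted p = 0.189). Day and sort go together in these samples.

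The sorts of 1 day had a single sample on a side and were not tested. On day 2, Socs2 113301_at was the only 1 of the 22 that differed by 1 or more on the log2 scale: it was 1.33 lower in E-cadherin-negative than in E-cadherin-positive cells, where 5.85% of all probe sets were lower by 1 or more. On day 3, 4 of the 22 were lower by 1 or more in Sox1-positive than in Sox1-negative cells, beside 7.77% of all: Lifr 104657_at (-2), Stat3 140431_g_at (-1.74) and Socs2 99475_at and 113301_at (-1.27 each). Socs3 92232_at was 1.94 higher, beside 7.6% of all. Its Sox1-negative value of 25.4 was under the filter of its chip (78.6). The other Socs3 probe sets, 162206_f_at and 111736_at, were 0.67 and 0.92 higher. Between pairs of ES samples 2 (ES 1 and 2), 2 (ES 1 and 3) and 0 (ES 2 and 3) of the 22 differed by 1 or more in either direction, beside 10.1%, 13.9% and 8.19% of all.

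Other genes of the pathway changed less evenly. Over all aggregates, limma called 1 gene of the lists, Klf4, a Krüppel-like factor described as a STAT3 target in ES cells. It read 3339, 1854 and 2290 in ES cells and 423, 533, 787, 784, 532.5, 315 and 343 in the aggregates from day 1 to day 5 in the order above, all below the ES samples. It fell by 2.23 (SE 0.305, limma adjusted p = 0.0205), a call lost without any 1 of ES 1, ES 2, ES 3 or day 2 E-cadherin-negative cells. In Sox1-positive cells, of the 24 other described STAT3 targets tested, 9 fell, 1 rose and 14 did not pass (6.17% of all genes fell and 6.4% rose), with a median difference of -0.73 beside -0.013 for all genes. The list was written with earlier results of these data known, and the genes named next were chosen after their values were seen. Among the 9 were Tfcp2l1, a self-renewal factor (-4.14, SE 0.306), Klf5 (-3.38, SE 0.22) and Icam1, a cell adhesion molecule (-3.42, SE 0.231), with limma adjusted p of 0.000335, 0.000194 and 0.000219. The others were Noct, Klf4, Pramel7, Myc, Smad7 and Ier3. The Sox1-positive means of Tfcp2l1 (68.4), Icam1 (35.5), Myc (50.2) and Pramel7 (58.2) were under the filter of their chip (78.6). These genes passed it through their higher values in other samples. The calls of Pramel7, Smad7 and Ier3 were lost without any 1 of ES 2, ES 3, day 3 or day 4, that of Pramel7 also without ES 1 and those of Smad7 and Ier3 also without day 5. The one that rose was the immediate-early gene Fos (1.99, SE 0.394, limma adjusted p = 0.0177), which was 234 on day 1, below the ES range of 389 to 712, and 1189 or more in every later sample. Its call was lost without any 1 of ES 2, ES 3 or day 4, without ES 3 and day 5 together, and where the 3 classes were fitted together. Klf4 and Tfcp2l1 also stood among the 10 ES cell markers.

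Of 9 JAK and STAT genes tested, 3 fell (Jak3, Stat6 and Tyk2) and 2 rose (Jak2 and Stat5b) in Sox1-positive against ES cells, and 4 did not pass, beside 6.17% of all genes called lower and 6.4% called higher. The call of Jak2 was lost without any 1 of ES 1, ES 3, day 3 or day 4, and that of Tyk2 without any single one of the 6 samples. Jak3, a kinase known from lymphoid cytokine receptors, read 1423, 898 and 1115 in ES cells, 630.2 on day 1, 428 to 591 in day 2 and Sox1-negative cells, and 358, 291 and 310 in Sox1-positive cells, all aggregates being below all ES samples, with a difference of -1.77 (SE 0.212, limma adjusted p = 0.00252). Stat5b, a factor activated by growth hormone and related signals, had a weak ES signal of 63.4 to 86.9 and read 213 to 350.4 in Sox1-positive cells, a rise of 1.76 (SE 0.237, limma adjusted p = 0.00427). Its ES values were under the filter of its chip (117), which it passed only through its aggregate values. It read 305 on day 1, 269 and 123 in E-cadherin-negative and E-cadherin-positive cells of day 2, and 67.6 in day 3 Sox1-negative cells. Of 13 other inhibitors 1 fell, the phosphatase gene Ptpn6, and 12 did not pass, a share near the 6.17% of all genes that fell and so no result about the inhibitors. Ptpn6 read 133 to 193 in ES cells and 83.0, 54.8 and 37.4 in Sox1-positive cells, a difference of -1.34 (SE 0.259, limma adjusted p = 0.0162) whose call was lost without ES 3 or day 4. Its Sox1-positive mean of 58.4 was under the filter of its chip (78.6), which it passed through its other samples. Of 8 adaptor genes of the parallel branches 1 fell, Gab1, a docking protein (-1.66, SE 0.216, limma adjusted p = 0.00344), again with 6.17% of all genes called lower, so that the count is no result about the adaptors. Of the ligands and other receptors of the family, 2 and 3 were tested and did not pass, with differences between -0.31 and 0.91. Lif, Osm, Cntf, Il27 and Il11ra1 were not analysed here.

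**Figure D4:**
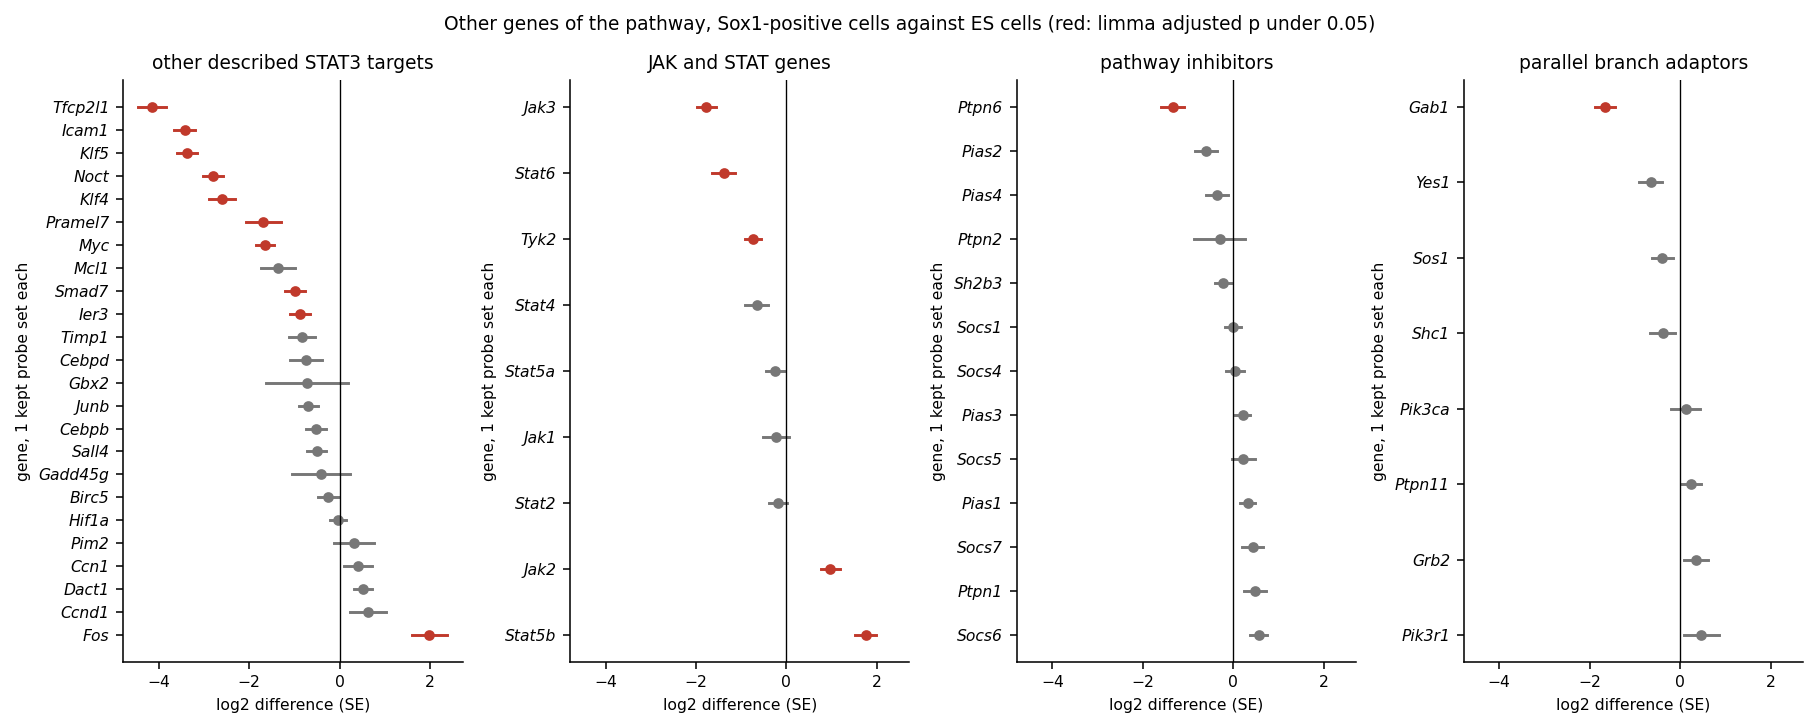
Log2 difference (points) with its SE (bars) between 3 Sox1-positive and 3 ES samples, by 1 probe set per gene, for other described STAT3 targets, JAK and STAT genes, pathway inhibitors and adaptors of parallel branches; red marks a limma adjusted p under 0.05. Of the 24 targets 9 lie to the left in red, led by Tfcp2l1 at -4.14, and Fos lies to the right at 1.99, while 12 of the 13 inhibitors are grey.

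Over the 10 samples, the genes whose log2 pattern was most like each of the 10 were found among 7695 genes, as a description. For Socs2 99475_at these were Pak1ip1, Etl4 and Bcat2, with Pearson r of 0.992, 0.984 and 0.979. For Bcl3 105489_at they were Klf4 (0.959), Fblim1 (0.958) and Cd9 (0.95), for Pim1 Washc4 (0.986), Eaf1 (0.962) and Mtss1 (0.955), and for Pim3 9430038I01Rik, Ifitm3 (both 0.963) and Sik1 (0.958). For Lifr they were Tle5 (0.953), Mib2 (0.932) and Wwc2 (0.926), for Socs3 162206_f_at Wdr24 (0.95), Hspg2 (0.901) and Ehd1 (0.886), and for Sbno2 Bbox1 (0.954), Spink5 and Kit (both 0.894). The nearest patterns to the other 3 were less close: Defb42, Gm11545 and Ubxn8 for Stat3 99099_at (0.899, 0.895 and 0.88), Krt1, Prr30 and Acss2 for Cish (0.871, 0.844 and 0.821) and Atp10a, Trim80 and Rwdd3 for Il6st 135888_at (0.8, 0.77 and 0.752). The points share their arrays and the order of culture, and several of these genes had weak signals.

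The marker lists of other cell types gave the following sums. Epiblast markers (5 genes, 4 above the filter) summed to 3457 to 5633 in ES cells, 6611 to 11840 in the other aggregates and 6233 to 8435 in Sox1-positive cells. Neuroectoderm markers (10 genes) summed to 3532 to 3995 in ES cells, 4325 to 11503 in the other aggregates and 13873 to 22527 in Sox1-positive cells. In both lists every aggregate sample lay above every ES sample, so these sums separate the same samples as Bcl3, in the other direction. Fibroblast and feeder markers (9 genes, 5 above the filter) summed to 2002 to 2775, 1412 to 2954 and 1971 to 2228, with overlapping ranges. Endoderm markers (10 genes) summed to 2023 to 2773, 1619 to 2134 and 2049 to 3414. Mesoderm markers (7 genes, 4 above the filter) summed to 928 to 1209, 1171 to 1357 and 1004 to 1204, and blood and endothelium markers (8 genes, 4 above the filter) to 624 to 982, 582 to 872 and 478 to 797. No gene of these 6 lists was at 0, and their part in the values of the 10 genes was not tested. The ratio of 3′ to 5′ actin signal on the A chip, a sign of RNA quality, was 1.70 in ES 3, 1.34 on day 5, 1.33 in day 2 E-cadherin-negative cells and 0.939 to 1.15 in the other 7 samples. Without ES 3 and day 5 together, 7 of 22 probe sets were called in Sox1-positive cells and 1 over all aggregates.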

How the data were processed

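RNA of 10 samples was hybridised to 3 chips each. The deposited value was 1 linear intensity per probe set and array, already scaled per the values (trimmed means of 500.108 to 500.281). The software is not given in the sources used here. Each probe set was named from the platform's tables, with symbols updated to RefSeq. Of 36899 probe sets, 198 controls were left out, 29131 named 1 gene, 724 several and 6846 none. Values were analysed as log2 of the deposited intensity plus 16. A probe set was tested if its mean over the 10 samples was at or above the chip's 30th percentile (78.6, 117 and 102), which left 25690, tested with limma 3.58.1 in R 4.3.3 (lmFit, eBayes), with Benjamini-Hochberg adjustment over the 3 chips together and calls at an adjusted p under 0.05. A gene was represented by the probe set with the highest mean log2 value. The 10 genes were always named, with the 2 largest called rises and falls of each pathway list over all aggregates and the 3 most similar patterns of each member with a log2 range of at least 1. The members and lists were chosen with earlier results of these data known. Alternatives were quantile normalization, the 75th percentile, pseudocounts of 1 and 64, other filters, a prior trend, adjustment within chips, 1 fit of 3 classes, gene means, and samples left out. The code was tested on simulated data. Plots used Python 3.11.15 with matplotlib 3.10.9.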

Additional observations from a re-analysis of the deposited data

Results flagged for a closer look

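Of 44 groups of values examined (the 22 probe sets of the members in the 7 aggregate samples and in the 4 other aggregate samples), 3 held a sample far from the others; chance flags about 1 in 20 groups. Lifr 104657_at was lowest in day 3 Sox1-positive cells, at 12.2, with the next aggregate sample at 61.6. In day 2 E-cadherin-negative cells Il6st 94345_at was lowest among the 4 other aggregate samples, at 231, with the next at 454. Pim1 99384_at was lowest in the same sample, at 223, with the next at 312. The actin 3′ to 5′ ratio of that sample was 1.33, and its part in these values was not tested.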

How the results depend on the processing

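Of the counts of called probe sets, that over all aggregates (2) was 1 with no filter, 7 in 1 fit of 3 classes, 1 without ES 3 and day 5 together, and 1 to 3 with 1 sample left out. By 1 probe set per gene it (0) was 4 in 1 fit of 3 classes, 1 with gene means and 0 to 1 with 1 sample left out, and for the other aggregates (0) it was 1 with gene means. In Sox1-positive against ES cells 13 became 7 without ES 3 and day 5 and 5 to 11 with 1 sample left out, and by 1 probe set per gene 7 became 4 with no filter, 4 without ES 3 and day 5, and 1 to 6 with 1 sample left out. Against the other aggregates both counts (0) were 1 in 1 fit of 3 classes, and 0 to 4 and 0 to 1 with 1 sample left out. Over the lone samples 8 became 2 with no filter, 2 without ES 3 and day 5 and 1 to 11 with 1 ES sample left out, and by 1 probe set per gene 4 became 1, 0 and 0 to 5. Between the sorts of day 2 quantile normalization gave 2 instead of 1. The slope gave 0 in every setting tried. For these settings, here and in the sections above, the shares of all probe sets called are not given. The counts therefore show only how far the calls depended on the processing and the samples. Some calls described above as lost without a sample were also lost with no filter, in 1 fit of 3 classes or without ES 3 and day 5 together. With gene means the called fall of Sbno2 became 0.008, as its weak probe set then counts equally (-0.844 to -0.65 with 1 sample left out); this was the only called value that changed sign.

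Differences that were not called changed sign as follows. Over all aggregates Il6st 98349_at was -0.071 with quantile normalization, -0.02 in 1 fit of 3 classes and -0.163 to 0.226 with 1 sample left out; Il6st 135888_at was -0.279 to 0.004 and Cish -0.55 to 0.103. In the other aggregates, with 1 sample left out, Cish was -0.501 to 0.152, Lifr 104657_at -0.307 to 0.034, Socs2 99475_at -0.296 to 0.101, Il6st 135888_at -0.376 to 0.026 and Il6st 94345_at -0.131 to 0.182 (0.004 without ES 3 and day 5). In Sox1-positive against ES cells Cish was -0.615 to 0.037, Il6st 98349_at -0.389 to 0 and Il6st 135888_at -0.502 to 0.346 (0.205 without ES 3 and day 5). Against the other aggregates Lifr 103697_at was -0.465 to 0.041, Socs3 92232_at -0.317 to 0.769, Pim1 99384_at -0.561 to 0.022, Il6st 135888_at -0.334 to 0.514 (-0.313 with gene means) and Sbno2 112720_at 0.144 with gene means (-0.428 to -0.162, with no change of sign, with 1 sample left out). The cause was not tested.

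Only ES cells had replicates, so a lone sample is assumed to vary like them. The low values of Bcl3 102239_at and Lifr 104657_at lie near the weakest signals, where the scale limits how far a fall can be read. No paired analysis was possible because the lone groups carry no shared replicate numbers.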
